A study of Mus musculus with 16 samples.

Results

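Signal of T cell and natural killer (NK) cell genes was described in 4 groups of B cell preparations. The genes are the T cell genes Cd3d, Cd3e, Cd3g, Cd247, Lck and Thy1 and the NK cell genes Klrd1, Klrb1c, Ncr1 and Gzma. Every probe set of the array whose annotated gene symbol is one of these 10 genes was taken. This gave 11 of 45101 probe sets, 8 for T cell genes and 3 for NK cell genes, and they represent 8 of the 10 genes, among 18194 genes named by a probe set of their own. Cd247 has 4 of them and the other 7 genes have 1 each. The platform table used here assigns no probe set to Lck, and Klrb1c appears only on a probe set assigned jointly to Klrb1b and Klrb1c, so neither has a value. No measured value entered the choice of the probe sets.

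The study measured RNA of B1a cells from the peritoneal cavity and of CD43-negative splenic B cells (Bs), taken from mice 5 months old, on 4 Affymetrix arrays for each of 4 groups. B6_B1a and B6_Bs came from C57BL/6 (B6) mice. Sle2c1_B1a and Sle2c1_Bs came from B6.Sle2c1 mice, a congenic strain that carries the lupus susceptibility locus Sle2c1 of the NZM2410 strain, with the cell cycle inhibitor gene Cdkn2c, on the B6 background. All 4 groups were labelled in the same way and none received a treatment in the labels. For the B1a groups, the labels describe removal of peritoneal macrophages by adherence over 2 h of culture in 10% serum, negative selection with antibodies to Thy1.2 and CD3ε, and positive selection with an antibody to CD5. The products of Thy1 and Cd3e were thus themselves targets of the B1a selection and not of the splenic one, which used a B cell kit. The labels put the B1a product at 80% B220int CD5+ cells and the splenic product at over 90% B220hi cells, so part of each preparation was not of the stated phenotype. The series calls the arrays of a group biological replicates, and no label says how many mice gave each RNA, so that p-values measure the spread between these samples.

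On T cells the CD3γ, CD3δ and CD3ε chains (Cd3g, Cd3d, Cd3e) and the ζ chain (Cd247) form the signalling part of the T cell receptor complex, and their phosphorylated tails recruit the kinase ZAP-70. Thy1 is a small surface glycoprotein of mouse T cells. NK cells lack the complete receptor but use the ζ chain with activating receptors such as NKp46 (Ncr1). They carry CD94 (Klrd1), which pairs with NKG2 chains to bind a nonclassical MHC molecule, and they kill with granule proteases such as granzyme A (Gzma). B cells are not known as a main source of any of these transcripts, whereas CD5, the antigen of the positive selection, is present on both B1a cells and T cells.

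The RefSeq promoter table of assembly GRCm38.p6 holds 8 of the 10 genes. Promoters of the 3 CD3 genes, each highest on array 1 among the Sle2c1_B1a arrays, and of Gzma, whose signal lay in the splenic arrays, are shown for their first 250 bases upstream of the annotated start. The starts of Cd3g and Cd3d lie 1355 bases apart and point away from each other. Sequences run 5′ to 3′ on the strand of the gene. Capitals mark matches, on either strand, to GGAAG, a motif bound by ETS family factors, or to TGTGGT, bound by RUNX family factors. Only these exact letters were searched, and no shorter or variant form of either motif.
Cd3g, chr9:44980432-44980681, minus strand: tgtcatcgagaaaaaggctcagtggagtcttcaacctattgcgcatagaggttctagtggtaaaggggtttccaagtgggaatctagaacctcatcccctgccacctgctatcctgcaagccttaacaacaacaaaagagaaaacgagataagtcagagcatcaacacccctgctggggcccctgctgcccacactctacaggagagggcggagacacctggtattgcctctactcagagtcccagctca
Cd3d, chr9:44981536-44981785, plus strand: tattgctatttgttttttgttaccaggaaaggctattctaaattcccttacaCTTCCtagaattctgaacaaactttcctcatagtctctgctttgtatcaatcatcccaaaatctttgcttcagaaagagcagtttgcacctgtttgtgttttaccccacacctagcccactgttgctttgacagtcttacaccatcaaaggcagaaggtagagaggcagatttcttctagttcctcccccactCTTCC
Cd3e, chr9:45009612-45009861, minus strand: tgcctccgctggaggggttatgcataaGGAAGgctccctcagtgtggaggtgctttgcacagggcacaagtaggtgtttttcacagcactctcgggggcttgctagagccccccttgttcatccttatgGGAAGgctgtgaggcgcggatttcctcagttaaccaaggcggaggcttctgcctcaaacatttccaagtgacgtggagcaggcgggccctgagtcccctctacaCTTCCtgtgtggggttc
Gzma, chr13:113100982-113101231, minus strand: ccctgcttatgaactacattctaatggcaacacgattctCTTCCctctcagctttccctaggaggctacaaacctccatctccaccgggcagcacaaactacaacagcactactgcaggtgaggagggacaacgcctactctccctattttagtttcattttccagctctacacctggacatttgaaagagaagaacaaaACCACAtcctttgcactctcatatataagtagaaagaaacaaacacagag
GGAAG matched 2 times in the Cd3d window, 3 times in that of Cd3e, 1 time in that of Gzma and 0 times in that of Cd3g. The RUNX motif matched 1 time, in the Gzma window. Of 32851 promoters of this length, 64.1% hold GGAAG and 14% the RUNX motif, so a match to the first is common. In the Gzma window the 2 matches do not overlap. A match is a description of these letters and not a binding site.

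Values are a deposited score that behaves like a log signal of unknown base, centring and scaling. Differences are therefore given in units of the score and never as fold changes, and levels of different probe sets are not compared. Scores below 0.495 carry no usable level and were raised to this value, called the floor. All 16 arrays held B cell signal. The mean score of 8 measured B cell genes, among them Ms4a1 and Cd79a, lay between 2.83 and 3.08 on every array. Each of the 8 genes of interest passed the filter on low values (above the array's 40th percentile on at least 4 arrays), and so did 2 of the 4 Cd247 probe sets. Array medians ranged from 0.68 to 1.12. On the first 2 principal components, Sle2c1_B1a 4 (-55.6 on the second), B6_Bs 3 (61.3 on the first), Sle2c1_Bs 3 (54.6 on the first) and B6_Bs 1 (-11.5 on the first) stood apart from their groups. Results were recomputed without the first 3 of these.

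The CD3 genes and the NK cell genes had their highest group means in different preparations. Cd247 and Thy1, the other T cell genes measured, are described below. The mean of each CD3 gene was highest in the B1a preparations of B6 mice. In splenic arrays Cd3d and Cd3g lay at or near the floor, and Cd3e was above it on 6 of 8 arrays. Klrd1, Ncr1 and Gzma gave signal in the splenic preparations of both strains and less in the B1a preparations. The mean score of Cd3d, Cd3e and Cd3g was 1.62 ± 0.220 (SD, n = 4) for B6_B1a and 0.855 ± 0.483 for Sle2c1_B1a. It was 0.710 ± 0.0949 for B6_Bs and 0.555 ± 0.0943 for Sle2c1_Bs. The mean score of Klrd1, Ncr1 and Gzma was 0.533 ± 0.0611, 0.703 ± 0.241, 1.57 ± 0.211 and 1.41 ± 0.188 in the same order of groups. In these bulk samples, fewer cells of a type and less RNA per cell cannot be told apart.

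**Figure D1:**
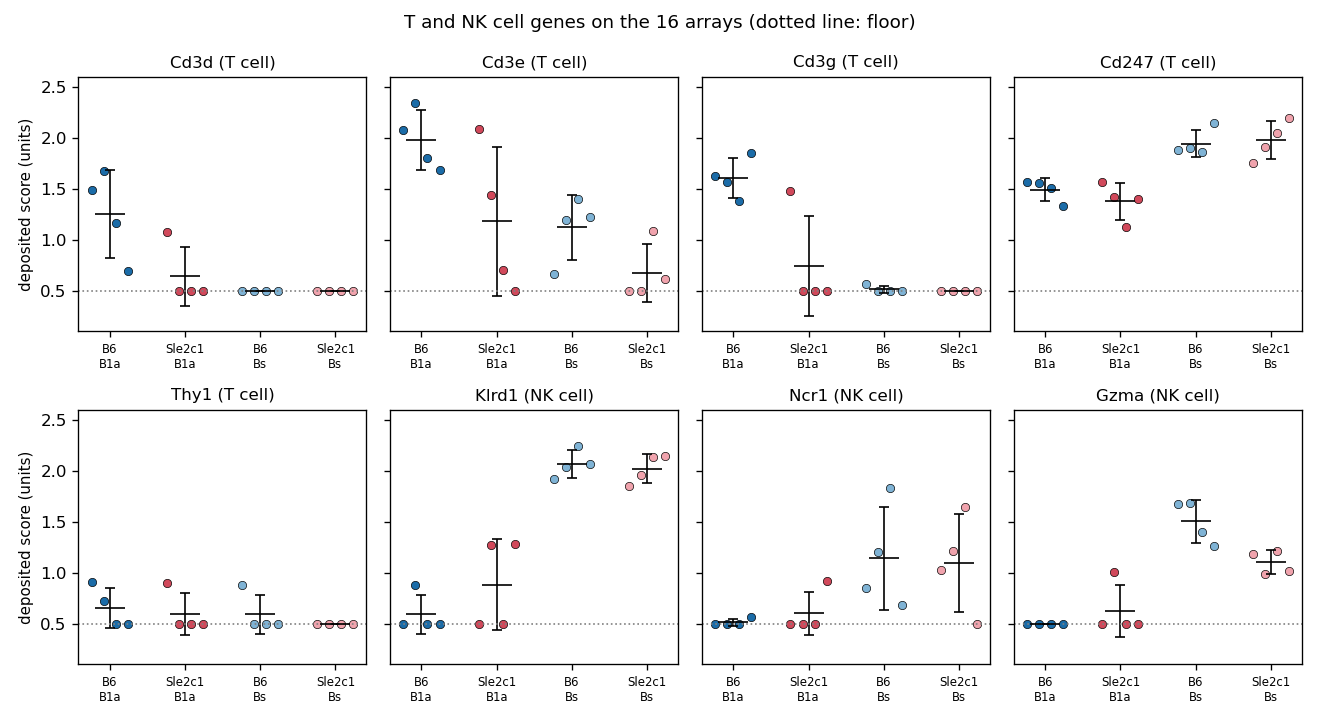
Deposited score (units of the score, vertical axis) of the 8 measured genes on each array of the 4 groups. Points are arrays in replicate order, bars are the group mean and SD over 4 arrays, and the dotted line is the floor of 0.495. The CD3 genes are high in B6_B1a and on 1 array of Sle2c1_B1a, and Klrd1, Ncr1 and Gzma are high in the Bs groups.

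Cd3g separated B6_B1a from all but 1 other array. It scored 1.63, 1.57, 1.38 and 1.85 on B6_B1a arrays 1 to 4, and 1.48 on Sle2c1_B1a 1. The other 3 Sle2c1_B1a arrays, 3 of the 4 B6_Bs arrays and all 4 Sle2c1_Bs arrays were at the floor, and B6_Bs 1 scored 0.57. A single Sle2c1 preparation thus lay within the range of the B6 preparations, and the other 3 gave no usable Cd3g signal.

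Cd3d had the same distribution. Scores were 1.49, 1.68, 1.17 and 0.69 on the 4 B6_B1a arrays and 1.08 on Sle2c1_B1a 1. All 11 remaining arrays were at the floor, so both splenic groups carry only a bound.

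Cd3e, the chain bound by the depleting CD3ε antibody, was measured on more arrays. It scored 2.08, 2.35, 1.81 and 1.69 in B6_B1a and 2.09, 1.44 and 0.70 on Sle2c1_B1a arrays 1 to 3, with array 4 at the floor. B6_Bs arrays scored 0.66, 1.20, 1.40 and 1.23. In Sle2c1_Bs, arrays 1 and 2 were at the floor and arrays 3 and 4 scored 1.09 and 0.62. The Sle2c1_B1a preparations therefore covered the whole range from the floor to the level of B6_B1a, and in each case array 1 was the highest.

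Thy1, the target of the other depleting antibody, was close to the floor everywhere. It scored 0.91 and 0.72 on B6_B1a 1 and 2, 0.90 on Sle2c1_B1a 1 and 0.88 on B6_Bs 1, and was at the floor on the other 12 arrays. The group means of B1a preparations were 0.655 ± 0.200 (B6) and 0.596 ± 0.203 (Sle2c1). Those of Bs preparations were 0.591 ± 0.193 (B6) and 0.495 (Sle2c1). No neighbours in this order differed beyond their spread.

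The question whether the strains differ in this signal was tested in one limma fit over all features, with Benjamini-Hochberg adjustment and a threshold of 0.05. In B1a preparations 1 of the 5 T cell genes was lower in Sle2c1 than in B6 and 0 were higher, where 1.45% of all 22727 features were lower and 1.93% higher. That gene was Cd3g, lower by 0.87 units (SE 0.178, limma adjusted p = 0.0146), with group means of 1.61 ± 0.194 and 0.741 ± 0.492. Cd3g and Cd3d passed the filter on low values only through the 4 B6_B1a arrays, so they entered the test through the group in which they are high. Neither is tested when 8 arrays must exceed the percentile, and with no filter at all Cd3g passed (limma adjusted p = 0.0215). Cd3d differed by -0.62 units (SE 0.176, limma adjusted p = 0.0765) and Cd3e by -0.80 units (SE 0.296, limma adjusted p = 0.178), and neither passed. Cd247 (-0.11) and Thy1 (-0.06) did not pass either. The median difference of the 5 genes was -0.616 units, against 0.025 over all features, and it is the value of Cd3d. The groups overlapped for each CD3 gene through Sle2c1_B1a 1, and the exact two-sided permutation p was 0.0571 for Cd3g and Cd3d and 0.143 for Cd3e, where 4 against 4 arrays allow no p below 0.0286.

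How many CD3 genes passed depended on array Sle2c1_B1a 1. Without it all 3 passed, with differences of -0.76 for Cd3d, -1.10 for Cd3e and -1.11 for Cd3g (limma adjusted p = 0.0177, 0.0212 and 7.08e-06). Of 22727 features 603 were then higher and 498 lower. This array is the highest of its group for each CD3 gene, so leaving it out widens these differences by construction. Without B6_B1a 4, Cd3d passed beside Cd3g (limma adjusted p = 0.00597). Without the 3 arrays that stood apart, Cd3g differed by -0.78 units and no longer passed (limma adjusted p = 0.0658), and the same held when only the 8 B1a arrays were fitted (limma adjusted p = 0.177).

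Macrophage and mast cell genes also had lower mean scores in Sle2c1_B1a than in B6_B1a. Within B6_B1a, the macrophage mean was 1.86, 1.23, 1.84 and 2.39 on arrays 1 to 4, and the CD3 mean 1.73, 1.87, 1.45 and 1.41. The mean score of 15 measured macrophage genes was 1.23 to 2.39 on the B6_B1a arrays and 0.930 to 0.969 on the Sle2c1_B1a arrays, and 7 of the 15 were lower in Sle2c1, where 1.45% of all features were. The number of these genes above the floor was 10 to 15 on B6_B1a arrays and 4 to 6 on Sle2c1_B1a arrays. The mean of 9 mast cell genes was 1.73, 1.43, 1.39 and 1.35 on B6_B1a arrays 1 to 4. On Sle2c1_B1a arrays 1 to 4 it was 1.44, 1.29, 0.997 and 1.27, beside CD3 means of 1.55, 0.810, 0.563 and 0.495. Between the strains 0 of the 9 mast cell genes passed the test. On Sle2c1_B1a 1 the macrophage mean (0.969), the mast cell mean (1.44) and the CD3 mean (1.55) were each the highest of the group. The part of macrophages and mast cells in the CD3 difference was not tested.

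**Figure D2:**
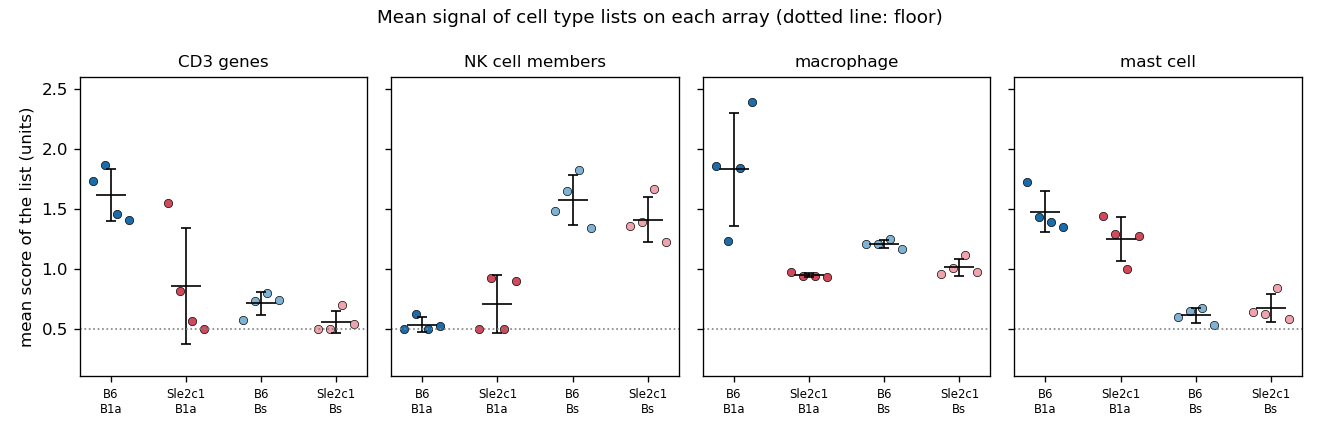
Mean score (units of the score, vertical axis) of the CD3 genes, the 3 NK cell genes, 15 macrophage genes and 9 mast cell genes on each array of the 4 groups. Points are arrays, bars are the mean and SD over 4 arrays, and the dotted line is the floor. Macrophage signal on the Sle2c1_B1a arrays spans 0.930 to 0.969 and lies below all 4 B6_B1a arrays. CD3 signal and mast cell signal of Sle2c1_B1a 1 lie within the B6_B1a ranges.

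In splenic preparations 0 of the 5 T cell genes passed between the strains by limma, with 0 at an unadjusted p under 0.05, where 0.154% of features passed in either direction. The largest difference was that of Cd3e, 1.12 ± 0.321 in B6_Bs against 0.675 ± 0.283 in Sle2c1_Bs (-0.45 units, limma adjusted p = 1, exact permutation p = 0.0571, without pairing). It was lower in Sle2c1_Bs on all 4 same-numbered pairs of arrays, and did not pass with the replicate block either. Cd3d was at the floor on all 8 arrays. Whether the strain difference itself differed between the preparations was tested as an interaction. 0 of 8 genes passed by limma, where 0.431% of features did, and 3 of the 8 had an unadjusted p under 0.05. The interaction was -0.85 units for Cd3g (SE 0.252, limma adjusted p = 0.297). Without Sle2c1_B1a 1 it was -1.09 and passed (limma adjusted p = 0.000434), where 100 features were higher and 83 lower. Leaving out this array, the highest of its group for Cd3g, widens the interaction by construction.

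Within B6 mice, the B1a and splenic preparations differed in most of these genes, as did many features of the table. Of the 5 T cell genes 2 were higher in B1a and 1 was lower, where 9.02% of features were higher and 12.2% lower. Cd3g was higher by 1.09 units (SE 0.178, limma adjusted p = 0.000547). Cd3d was higher by at least 0.76 units, with all B6_Bs arrays at the floor (limma adjusted p = 0.00694). With no filter both passed as well (limma adjusted p = 0.000769 for Cd3g and 0.00898 for Cd3d). Cd3e was 0.86 units apart (SE 0.296) and missed the threshold (limma adjusted p = 0.0528), although every B6_B1a array lay above every B6_Bs array (exact permutation p = 0.0286). It passed without Sle2c1_B1a 1, 3 or 4 (limma adjusted p = 0.017, 0.0498 and 0.0317) and without the 3 arrays that stood apart (limma adjusted p = 0.0365). Leaving out a Sle2c1_B1a array keeps the Cd3e difference at 0.86 and changes only the shared estimate of spread and the adjustment. With each array left out the limma adjusted p for Cd3e ranged from 0.017 to 0.139. In this comparison B1a lay wholly above Bs for 10.7% of features and wholly below for 11.6%.

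Within Sle2c1 mice, 0 of the 3 CD3 genes passed between B1a and splenic preparations, where 11% of features were higher and 14.7% lower. Differences were 0.15 for Cd3d, 0.51 for Cd3e and 0.25 for Cd3g (limma adjusted p = 0.571, 0.224 and 0.329). Both comparisons of preparations use the same arrays as the strain comparisons, so their values stand side by side and are not independent of them.

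Cd247 did not follow the other CD3 chains, and its probe sets disagreed. The probe set with the highest mean, 1426079_at, scored 1.57, 1.56, 1.51 and 1.33 in B6_B1a and 1.57, 1.42, 1.13 and 1.40 in Sle2c1_B1a. It scored 1.88, 1.90, 1.86 and 2.15 in B6_Bs and 1.76, 1.91, 2.05 and 2.20 in Sle2c1_Bs. In each strain every splenic array lay above every B1a array. B1a lay wholly below Bs for 11.6% of features in B6 and for 15.5% in Sle2c1. The B1a level was lower by 0.46 units in B6 (SE 0.111, limma adjusted p = 0.00982) and by 0.60 units in Sle2c1 (SE 0.111, limma adjusted p = 0.00115). The B6 difference did not pass after quantile normalization of Cd247 and all other probe sets (limma adjusted p = 0.0576).

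The second probe set past the filter, 1420716_at, ran the other way in B6. It scored 1.37, 1.53, 1.10 and 1.27 in B6_B1a and 0.89, 0.64 and 0.89 on B6_Bs 1 to 3, with array 4 at the floor. This put B1a 0.589 units above Bs with no overlap (SE 0.240, limma adjusted p = 0.0996 over all probe sets, exact permutation p = 0.0286). In B6, B1a lay wholly above Bs for 10.7% of features. In Sle2c1_B1a this probe set scored 1.00, 1.43 and 1.82 on arrays 1, 2 and 4, with array 3 at the floor. In Sle2c1_Bs it scored 0.96, 0.85 and 1.37 on arrays 1, 2 and 4, with array 3 at the floor, and the difference there was 0.27 (limma adjusted p = 0.442).

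The remaining 2 Cd247 probe sets gave little. 1426396_at was above the floor only on B6_B1a 2 (1.08), B6_Bs 3 (0.69) and B6_Bs 4 (0.64). 1452539_a_at was above it only on Sle2c1_B1a 4 (1.55) and Sle2c1_Bs 2 (0.52). When the 2 probe sets past the filter were averaged, the difference between B1a and Bs was 0.0669 in B6 (limma adjusted p = 0.791) and -0.166 in Sle2c1 (limma adjusted p = 0.433). The direction of Cd247 between preparations therefore depends on the probe set.

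**Figure D3:**
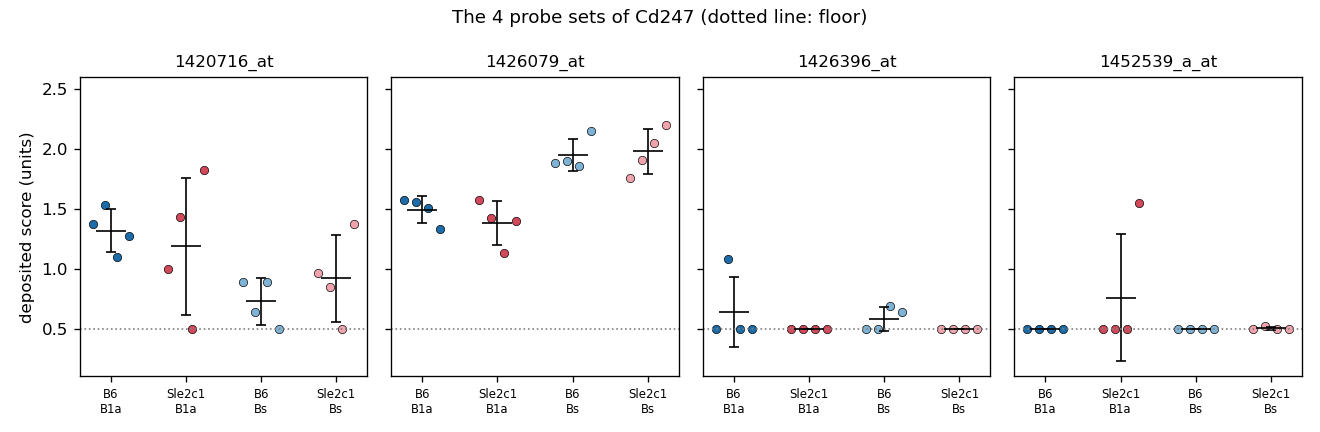
Deposited score (units of the score, vertical axis) of the 4 probe sets of Cd247 on each array of the 4 groups, with the group mean and SD over 4 arrays and the floor as a dotted line. In each strain 1426079_at is higher on all Bs arrays than on all B1a arrays. 1420716_at is higher in B6_B1a than in B6_Bs, and the other 2 are at the floor on nearly all arrays.

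Klrd1 separated the splenic from the B1a preparations most clearly among the NK cell genes. It scored 1.92, 2.04, 2.25 and 2.07 in B6_Bs and 1.85, 1.96, 2.14 and 2.15 in Sle2c1_Bs. In B6_B1a it was above the floor only on array 2 (0.88), and in Sle2c1_B1a on arrays 2 (1.27) and 4 (1.28). In each strain all splenic arrays thus lay above all B1a arrays. B1a lay wholly below Bs for 11.6% of features in B6 and for 15.5% in Sle2c1. The B1a level was lower by 1.48 units in B6 (SE 0.178, limma adjusted p = 3.52e-05) and by 1.14 units in Sle2c1 (SE 0.178, limma adjusted p = 0.000288).

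Gzma was also a splenic signal. It scored 1.68, 1.69, 1.40 and 1.26 in B6_Bs and 1.19, 0.99, 1.22 and 1.02 in Sle2c1_Bs. All B6_B1a arrays were at the floor, and in Sle2c1_B1a only array 2 was above it, at 1.01. The B1a level was lower by at least 1.01 units in B6 (limma adjusted p = 3.73e-05). In Sle2c1 it was lower by 0.48 units (SE 0.122, limma adjusted p = 0.0103), with overlap through Sle2c1_B1a 2 (exact permutation p = 0.0571). Without the 3 arrays that stood apart, the Sle2c1 difference was -0.40 and did not pass (limma adjusted p = 0.0636).

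Ncr1 scored 0.85, 1.21, 1.83 and 0.68 in B6_Bs and 1.03, 1.22 and 1.65 on Sle2c1_Bs 1 to 3, with array 4 at the floor. Among the B1a arrays it was above the floor only on array 4 of each strain, at 0.57 in B6 and 0.92 in Sle2c1. The differences were -0.63 units in B6 (limma adjusted p = 0.0802) and -0.50 units in Sle2c1 (limma adjusted p = 0.147). Neither passed, although the B6 groups did not overlap (exact permutation p = 0.0286), as for 11.6% of features in this direction. The B6 difference passed without B6_Bs 4 (limma adjusted p = 0.0487), and the Sle2c1 difference without Sle2c1_Bs 4 (limma adjusted p = 0.0418).

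Thus 2 of the 3 NK cell genes were lower in B1a than in Bs in each strain and 0 were higher, where 12.2% of all features were lower in B6 and 14.7% in Sle2c1. Klrd1, Ncr1 and Gzma passed the filter on low values only with the splenic arrays. These 3 genes thus entered the tests through the groups in which they are high. Their median difference was -1.01 units in B6 and -0.498 in Sle2c1, against -0.0525 and -0.045 over all features. After Benjamini-Hochberg adjustment over the exact tests of the probe set that stood for each gene, in all comparisons of 2 groups, no exact p fell below 0.0915.

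Between the strains 0 of the 3 NK cell genes passed in either preparation. In B1a preparations the differences between Sle2c1 and B6 were 0.29 for Klrd1, 0.09 for Ncr1 and 0.13 for Gzma (limma adjusted p = 0.427, 0.886 and 0.627), and 0 of the 3 had an unadjusted p under 0.05. In splenic preparations Gzma was the 1 gene with an unadjusted p under 0.05. Its 4 Sle2c1_Bs scores all lay below its 4 B6_Bs scores, with means of 1.11 ± 0.117 and 1.51 ± 0.213 (difference -0.40, SE 0.122, limma adjusted p = 0.699, exact permutation p = 0.0286). Groups did not overlap in this direction for 1.15% of features. Gzma passed with array weights (difference -0.54, limma adjusted p = 0.00712), where 225 of 22727 features were higher and 162 lower.

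**Figure D4:**
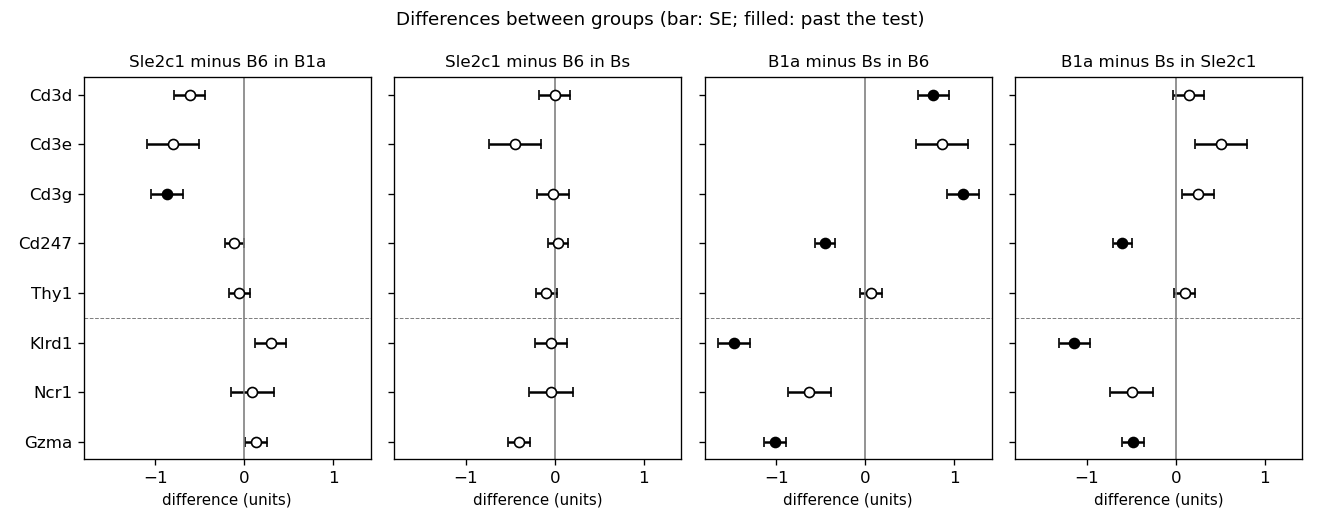
Difference between group means (units of the score, horizontal axis) for each of the 8 genes in the 4 comparisons of 2 groups. Circles are estimates from the limma fit, bars are their SE, and filled circles passed an adjusted p of 0.05. Only Cd3g is filled in the strain comparison of B1a preparations and none in that of Bs preparations.

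The array means of both gene sets showed how the preparations fell. All 4 B6_B1a arrays combined a CD3 mean of 1.41 to 1.87 with an NK mean of at most 0.623. The splenic arrays combined an NK mean of 1.22 to 1.83 with a CD3 mean of at most 0.797. Among the Sle2c1_B1a arrays, array 1 (CD3 mean 1.55, NK mean at the floor) lay with B6_B1a. Array 3 was near the floor in both (0.563 and 0.495). Arrays 2 and 4 had NK means of 0.925 and 0.898, below the splenic range and above all B6_B1a arrays, with CD3 means of 0.810 and 0.495. The 4 Sle2c1_B1a preparations thus differed from one another more in these genes than the B6_B1a preparations did, with SDs of 0.483 against 0.220 for the CD3 mean and 0.241 against 0.0611 for the NK mean. These SDs were not compared by a test.

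**Figure D5:**
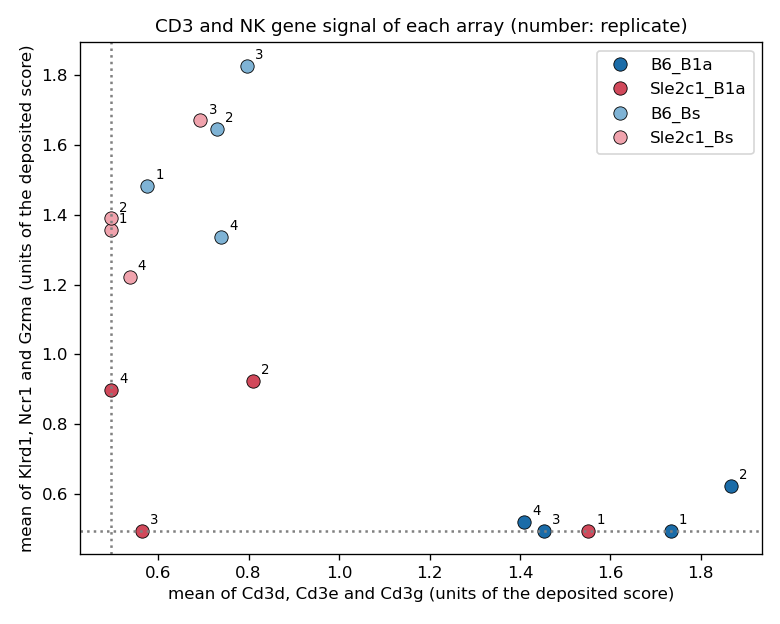
Mean score of Cd3d, Cd3e and Cd3g (horizontal axis, units of the score) against that of Klrd1, Ncr1 and Gzma (vertical axis) for each of the 16 arrays, coloured by group and numbered by replicate, with the floor as dotted lines. B6_B1a lies at the lower right and both Bs groups at the upper left, and Sle2c1_B1a 1 lies with B6_B1a.

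Of 20 listed signalling genes of the T cell receptor pathway 17 were measured. Between the strains in B1a preparations 1 of the 17 was higher and 0 were lower, where 1.93% and 1.45% of all features were. This was Themis, a signalling protein of developing T cells, at 0.665 ± 0.211 in B6 and 1.38 ± 0.281 in Sle2c1 (difference 0.72, limma adjusted p = 0.00868), opposite in direction to Cd3g. In splenic preparations Themis differed by 0.67 units (limma adjusted p = 0.109). Between B1a and Bs in B6, 1 of 17 was higher and 3 were lower, where 9.02% and 12.2% of all features were. Ptpn22, a phosphatase also used by B cells, was higher by 0.72 units. The kinase Fyn, the adaptor Pag1 and the phosphatase CD45 (Ptprc) fell by 0.48, 0.65 and 0.27 units. In Sle2c1 the same 4 genes passed in the same directions and Rasgrp1 was also lower, where 11% of all features were higher and 14.7% lower. Zap70, the kinase recruited by CD3 chains and named here after its values were seen, was at the floor on all B6_B1a arrays and averaged 1.01 ± 0.47 in B6_Bs (difference -0.52, limma adjusted p = 0.0942).

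Of 22 listed T cell surface and lineage genes 15 were measured, and 0 passed between the strains in either preparation. Between B1a and Bs in B6, 3 of the 15 were higher and 1 was lower, where 9.02% and 12.2% of all features were. The higher ones were the inhibitory receptor gene Ctla4 (1.79 units), Cd2 (0.64) and Cd5 (0.58 or more, since all Bs arrays were at the floor), and Cd2 and Cd5 are known on B cells as well. Cd8a, a coreceptor of cytotoxic T cells, was lower by 0.67 units (limma adjusted p = 0.0111), at 0.929 ± 0.32 in B6_B1a and 1.60 ± 0.09 in B6_Bs. In Sle2c1 mice, where 11% and 14.7% of all features were higher and lower, Ctla4, Cd2 and Cd28 were higher and Cd8a was lower by 0.94 units. Cd28 differed by 0.58 units (SE 0.19, limma adjusted p = 0.038). It was above the floor on 3 Sle2c1_B1a arrays and on no array of the other groups. Cd8a thus lay with the NK cell genes and not with the CD3 genes in the direction of its difference. Cd4, the coreceptor of helper T cells, was at the floor on all B6_B1a arrays and averaged 0.978 ± 0.56 in Sle2c1_B1a, and no comparison of it passed. Il7r averaged 1.90 ± 0.26 in B6_B1a and 1.16 ± 0.80 in Sle2c1_B1a (difference -0.735, limma adjusted p = 0.197).

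Of 27 listed NK and cytotoxic genes 23 were measured. Between B1a and Bs in B6, 6 of the 23 were lower and 0 were higher, where 12.2% of all features were lower and 9.02% higher. These were Klre1 (-1.04 units), Klrc1 (-1.22), Nkg7 (-1.09), Cd7 (-0.67), Klrb1f (-1.20) and Xcl1 (-0.73). Klrc1 encodes NKG2A, the partner of CD94, and it was at the floor on all B6_B1a arrays and averaged 1.71 ± 0.18 in B6_Bs. In Sle2c1 mice 4 were lower, namely Klre1 (-0.74), Klrc1 (-0.65), Klrk1 (-0.61) and Xcl1 (-0.83), and Cd226 was higher (0.71, limma adjusted p = 0.0495). In that comparison 14.7% of all features were lower and 11% higher. The median difference of the 23 genes was -0.42 units in B6 and -0.178 in Sle2c1, against -0.0525 and -0.045 over all features. Il2rb was near the floor in every group, between 0.556 and 0.661, and passed in no comparison.

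Between the strains, 1 of these 23 genes was higher in B1a preparations and 0 were lower, where 1.93% and 1.45% of all features were. This was Gzmk, encoding granzyme K, at 0.539 ± 0.0875 in B6_B1a and 1.52 ± 0.175 in Sle2c1_B1a (difference 0.98, limma adjusted p = 0.0107). In splenic preparations 0 of 23 passed. Nkg7 averaged 1.58 ± 0.23 in B6_Bs and 1.04 ± 0.27 in Sle2c1_Bs (difference -0.54, limma adjusted p = 0.725). The adaptor genes shared with myeloid cells (Tyrobp, Hcst, Fcer1g and Fcgr3) and the 3 measured innate lymphoid genes had 0 members past the test in any of these comparisons.

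Erythroid signal was also present in the splenic arrays. The mean of 4 measured erythroid genes was 0.964 to 1.69 in B6_Bs and 0.660 to 1.05 in Sle2c1_Bs, against at most 0.775 on B1a arrays, and its part in the splenic NK signal was not tested. Macrophage signal was 1.16 to 1.25 in B6_Bs and 0.952 to 1.11 in Sle2c1_Bs.

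The genes most like the CD3 mean were sought among 15121 named genes, by the Pearson correlation of deviations from the group means over the 16 arrays. They were Scrt2 (r = 0.948), Hephl1 (0.920), Sec16b (0.910), Ms4a4b (0.902) and Il7r (0.902). For the mean of the 3 NK cell genes they were Hacd1 (r = 0.943), Gm41724 (0.924), Scml2 (0.916), Gpm6b (0.907) and Htr2b (0.901). These values describe the same 16 arrays, which share their scaling and the floor, and the CD3 deviations come mostly from the Sle2c1_B1a group.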

How the data were processed

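The authors deposited 1 table of 45101 probe sets, whose unit is a score. The steps that made the score, its log base, centring and scaling are not given in the sources used here, and log-scale values had been assumed when the tests were planned. It holds no counts, and its precision is limited by how many arrays there are. The 40th percentile of each array had 2 uses. Its median over arrays set the floor (0.495). A probe set was kept if it exceeded it on 4 or more arrays (35032 kept). The platform annotation assigns 34958 probe sets to 1 gene, 932 to several and 9211 to none, and current symbols were looked up by Entrez identifier in a RefSeq table of GRCm38.p6 (99.42% matched). A gene was represented by its brightest kept probe set on average, which left 22727 features. Group means of all 16 arrays were fitted in 1 model by limma (version 3.58.1, under R 4.3.3, with statmod 1.5.0 for weights and blocks). Its two-sided p-values were adjusted by the Benjamini-Hochberg method across the 22727 features. Single probe sets were also compared by exact two-sided permutation tests over the 70 arrangements of 8 arrays. Data were simulated for the strain comparison of B1a preparations over 22727 features. Of 200 features changed by 1 unit, 78% were recovered, with 6 false calls. Recovery for genes with arrays tied at the floor, such as Cd3g and Cd3d, was not tested separately.

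The genes and lists were chosen with earlier results of these data known. The text names all 10 genes and their probe sets. From each list of genes it names up to 6 past the test, and always Cd4, Cd8a, Cd8b1, Cd5, Il2rb, Nkg7, Ms4a1 and Cd79a where measured. For each likeness it names the 5 closest genes, Il7r among them. Zap70 was added after its values were seen. Alternatives were other scalings, floors, filters, rules from probe sets to genes, forms of the test, blocks by replicate number, and arrays left out. Same-numbered arrays of the 2 splenic groups deviated together from their group means (r = 0.387, 0.112, 0.621 and 0.431), so that the numbers, whose meaning no label gives, were taken to pair these arrays. For B6_Bs 1 and B6_Bs 2, a Sle2c1_Bs array of another number correlated at least as well as the same-numbered one.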

Additional observations from a re-analysis of the deposited data

Results flagged for a closer look

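In 13 of the 35 groups of 4 arrays with any spread, over the 11 probe sets, 1 array lay far from the other 3 by Dixon's criterion. Chance marks about 1 in 20 groups of untied values. That rate does not apply to 12 of the 13, where the other 3 arrays were tied at the floor and any value above it meets the criterion. Sle2c1_B1a 1 stood above its group for Cd3d (1.08), Cd3g (1.48) and Thy1 (0.90). B6_Bs 1, which lay apart from the other B6_Bs arrays on the first principal component, stood above its group for Cd3g (0.57) and Thy1 (0.88). Sle2c1_B1a 4 stood out for Ncr1 (0.92) and for the Cd247 probe set 1452539_a_at (1.55), and Sle2c1_B1a 2 for Gzma (1.01). In B6_B1a, array 2 stood out for Klrd1 (0.88) and the Cd247 probe set 1426396_at (1.08), and array 4 for Ncr1 (0.57). Sle2c1_Bs 2 stood out for 1452539_a_at (0.52). The exception to the pattern of arrays at the floor was the Cd247 probe set 1426079_at, at 2.15 on B6_Bs 4 and at most 1.90 on the other 3.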

How the results depend on the processing

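The counts of the 8 genes past the test were 1 and 0 between the strains (B1a and Bs), 0 for the interaction, and 5 and 3 between preparations (B6 and Sle2c1). In the B1a strain comparison median centring called 444 of 22727 features higher and 465 lower, and array weights 744 and 489. The threshold of adjusted p under 0.10 called 699 and 573. Under each of these settings the count of the 8 genes was 2. It was 0 with interquartile scaling (whose lower quartile is a tied lowest value on most B1a arrays), with no floor, with the filter at 8 arrays (which leaves out Cd3d, Cd3g and Thy1), with only the arrays compared, with the replicate block on those arrays, and without the 3 arrays that stand apart. Leaving out each array gave 1 to 3. In Bs it was 4 with interquartile scaling, where 139 of 22727 features were higher and 7041 lower. With array weights it was 1 in Bs, where 225 features were higher and 162 lower. For the interaction it was 2 with array weights, where 180 features were higher and 134 lower, and 0 to 1 with each array left out. Between preparations it was 3 in B6 and 1 in Sle2c1, both with no floor and with the replicate block on the arrays compared alone, and 5 to 6 and 3 to 4 with each array left out. The replicate block over all groups gave 1, 0, 0, 5 and 3. In the Bs strain comparison, where the numbers were taken to pair the arrays, it changed no call (0 with and without it). In B1a 1 of 4 same-numbered pairs deviated together (r over 0.1), and between preparations 0 of 4 in B6 and 1 of 4 in Sle2c1. These arrays were therefore not taken as paired. For B6_B1a 1 and 4 the same-numbered Sle2c1_B1a array still correlated best (r = 0.0853 and 0.167), so pairing in B1a is not settled. Of the single differences that changed sign, Cd247 between strains in Bs was -0.0425 with median centring, -0.769 with interquartile scaling, -0.00834 with array weights and -0.02 without the 3 arrays (-0.0408 to 0.106 with each array left out). With interquartile scaling the interaction was 0.0704 for Cd3e and 0.616 for Cd247. With no floor, Klrd1 was -0.963 between strains in B1a and -0.918 for the interaction, and Cd3e was -0.45 between preparations in Sle2c1. The Thy1 interaction was -0.0025 with the floor at the 50th percentile and -0.0467 with array weights (-0.0638 to 0.123 with each array left out). Cd247 between preparations in B6 was 0.0669 with probe sets averaged. With each array left out, Thy1 ranged from -0.16 to 0.0263 between strains in B1a and from -0.0213 to 0.16 between preparations in B6, and Klrd1 from -0.095 to 0.015 between strains in Bs. Ncr1 ranged from -0.0188 to 0.123 between strains in B1a, from -0.228 to 0.185 in Bs and from -0.0979 to 0.315 for the interaction, and was -0.0188, 0.00167 and -0.0204 without the 3 arrays. None of these differences had passed except Cd247 between preparations. Cd3e between preparations in B6 passed with quantile normalization (limma adjusted p = 0.0307), median centring (0.0213) and only the arrays compared (0.0262). Gzma between preparations in Sle2c1 no longer passed under 6 of 17 settings, namely the floor at the 50th percentile (limma adjusted p = 0.127), the floor at 1 unit (0.378), no floor (0.0969), interquartile scaling (0.117), the replicate block on the arrays compared (0.121) and without the 3 arrays (0.0636). The cause of these changes was not tested. Arrays at the floor limit Cd3d, Cd3g, Thy1, Ncr1 and Gzma.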
